A study of Mus musculus with 8 samples.

Results

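The AU-rich mRNA decay factors are RNA-binding proteins that read AU-rich elements, or nearby stem-loops, in the 3′ untranslated regions (3′ UTRs) of short-lived messages. They were selected by name from a table of read counts per gene. The 9 names stand for 8 genes, since Auf1 is an older name of Hnrnpd, and the 8 are among 54532 gene identifiers in the table. Zfp36, Zfp36l1, Zfp36l2 and Zc3h12a were taken as the inducible factors, and Khsrp, Elavl1, Hnrnpd and Tia1 as the constitutive binders. RNA was sequenced from lens capsules taken 7 days after surgery from WT mice of the C57BL/6 strain, 6 to 8 weeks of age. In the 4 ASC libraries, an injury-induced model that the submitters describe as fibrotic cataract, a hypodermic needle passed through the cornea had cut the centre of the anterior lens capsule. In the 4 sham libraries the cornea was cut and the lens capsule was not. The comparison asks how expression differs between the injured and the sham-operated capsule. The labels call each replicate biological and do not say whether capsules of several mice were pooled.

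Messages of cytokines and immediate early genes often carry AU-rich elements and are removed within minutes of their synthesis. Zfp36 (tristetraprolin) and its relatives Zfp36l1 and Zfp36l2 bind such elements and bring in the CCR4-NOT deadenylase, which shortens the poly-A tail. Zc3h12a (Regnase-1) is an endonuclease that cuts stem-loops in inflammatory messages. Khsrp and Hnrnpd bind AU-rich elements and mostly favour decay, Elavl1 (HuR) mostly stabilises the message, and Tia1 holds back translation and gathers in stress granules.

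Several factors carry AU-rich elements in their own 3′ UTRs, so the stretch with the most motifs is shown for the members that have any. The letters are DNA letters of GENCODE mouse release M21 transcripts (GRCm38), 5′ to 3′ on the strand of the message, and the capitals mark TATTTAT, the core of the element bound by the Zfp36 family. The motif was searched on the message strand only, overlapping matches included.
Zfp36: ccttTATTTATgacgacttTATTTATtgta
Zfp36l1: cttatcaaaacgTATTTATtgccaaactat
Zfp36l2: aactatttaactTATTTATtatcttgtgaa
Elavl1: tTATTTATTTATTTATTTATtttTATTTAT
Tia1: ccagatacaatgTATTTATttaaaagattc
The Zfp36 stretch lies at chr7:28376958-28376987 on the minus strand and the Elavl1 stretch at chr8:4285777-4285806 on the minus strand. That of Zfp36l1 is chr12:80108422-80108451 (minus), that of Zfp36l2 chr17:84184914-84184943 (minus) and that of Tia1 chr6:86430466-86430495 (plus). The longest annotated 3′ UTR held 3 heptamers in Zfp36, 3 in Zfp36l1, 3 in Zfp36l2, 8 in Elavl1 and 1 in Tia1. Zc3h12a, Khsrp and Hnrnpd had 0 there. Among tested genes with an annotated 3′ UTR, 30.8% held at least 1.

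Library totals ran from 14420494 to 21141582 reads, and 15857 genes had enough reads to be tested. The lens epithelium genes Pax6 and Foxe3 were present in every library, at means of 410 and 335 CPM (reads scaled to library size) in ASC and 455 and 329 CPM in sham. Summed lens fibre markers were 49692 to 115796 CPM in ASC and 38057 to 68506 CPM in sham (two-sided exact permutation p = 0.0857, adjusted p = 0.193 over 9 marker lists, n = 4 each). Pigment cell markers summed to 203 to 714 CPM in ASC and 91.7 to 264 CPM in sham, and red cell markers to 73.9 to 370 CPM in ASC and 40.1 to 62.8 CPM in sham. Their exact permutation p-values were 0.0571 and 0.0286, the smallest possible being 0.0286. Red cell and neutrophil markers were both at that smallest p, with an adjusted p of 0.129 by the same test. No marker list passed after adjustment. A list at the smallest p could pass only if most of the 9 lists reached it, so this outcome does not show equal cell content. Corneal epithelium markers summed to 429 to 1031 CPM in ASC and 459 to 685 CPM in sham (exact permutation p = 0.486), mostly from Aldh3a1. Of 7 tested corneal markers 7 had a positive log2 fold change and 3 keratins, Krt12 (log2 fold change 3.19), Krt5 (3.52) and Krt6a (2.79), were called higher by edgeR's test. Lens epithelium markers, a list that includes the crystallins Cryaa and Cryab, summed to 152646 to 236081 CPM in ASC and 148012 to 215279 CPM in sham. Pax6 and Foxe3 were a small part of that sum, so it is not a measure of epithelial cell content. Endothelial markers summed to 5.87 to 17.7 CPM in ASC and 7.52 to 19.6 CPM in sham. Retina markers were highest in sham 3, at 4450 CPM, against 1074 to 2194 CPM in the other sham libraries and 2085 to 3975 CPM in ASC. Positive log2 fold changes were found for 13 of 13 tested lens fibre, 7 of 8 pigment cell, 5 of 5 red cell and 9 of 9 retina markers. They were also found for 10 of 12 macrophage and leukocyte, 6 of 8 lens epithelium, 3 of 5 endothelial and 1 of 1 neutrophil markers. Of all 15857 tested genes 8146 were positive, and no marker outside the corneal list was called. In bulk RNA, fewer cells of a type and less RNA per cell cannot be told apart.

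None of the 8 factors passed edgeR's quasi-likelihood test at a Benjamini-Hochberg adjusted p under 0.05, the threshold used throughout, which 1.02% of all tested genes passed (0.631% higher and 0.391% lower in ASC). At an unadjusted p under 0.05 there were 3 members, Zfp36 and Zfp36l1 higher and Tia1 lower in ASC, against 14.7% of all tested genes (6.82% higher and 7.9% lower). DESeq2 and limma-voom each called 1 member, Zfp36, which was higher in ASC. DESeq2 called 3.06% of its tested genes, 1.82% higher in ASC, and limma-voom 1.01%, 0.555% higher. The inducible factors had a median log2 fold change (ASC over sham) of 0.88, with 4 of 4 positive, where 8146 of all 15857 tested genes were. Of the 4, Zfp36l2 lay near 0 and its sign turned in 8 of 18 alternative settings. The constitutive binders had a median of -0.05, with 2 of 4 positive, and all tested genes a median of 0.008. The 4 inducible values spanned 0.02 to 3.55 and the 4 constitutive values -0.26 to 0.07.

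**Figure D1:**
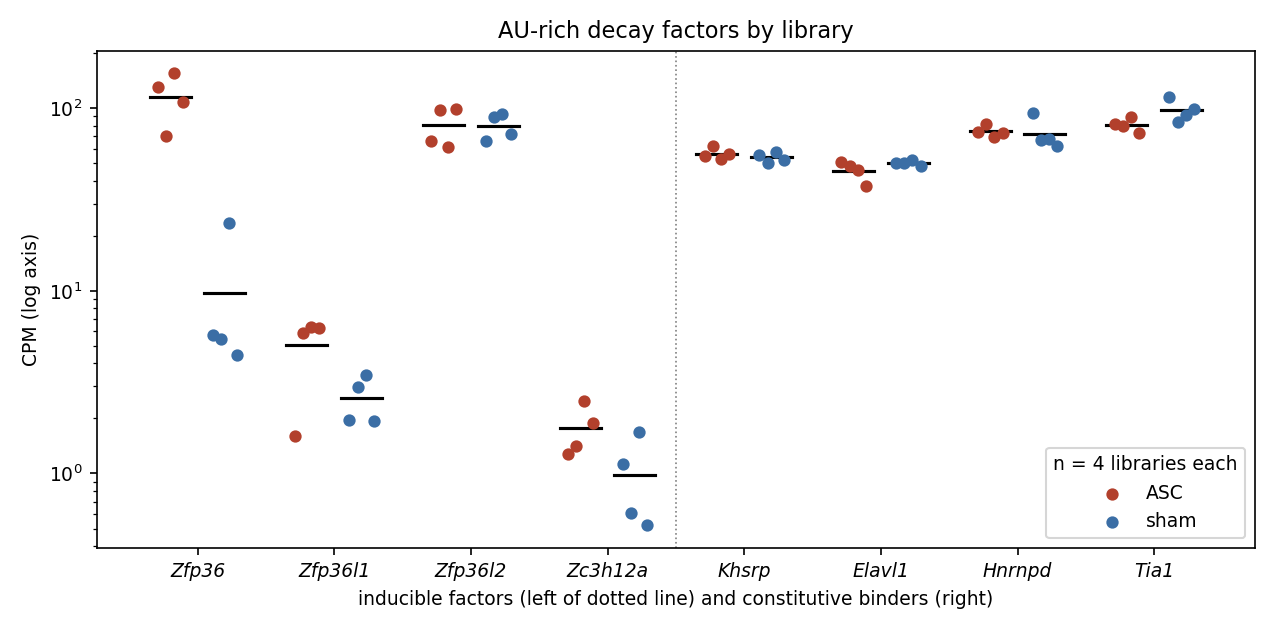
Level of each decay factor in every library, in CPM on a log axis, with inducible factors left of the dotted line and constitutive binders right of it. Points are libraries and bars the means of 4 ASC and 4 sham libraries; the Zfp36 points of ASC, 70.4 to 155 CPM, all lie above those of sham, 4.47 to 23.5 CPM.

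Zfp36 (ENSMUSG00000044786, chr7:28376784-28380253 on GRCm38) stood at 130, 70.4, 155 and 107 CPM in ASC 1 to 4, against 5.71, 5.46, 23.5 and 4.47 CPM in sham 1 to 4. Every ASC library was above every sham library, and sham 3 was the highest of the sham libraries. Zfp36 was the only member whose groups did not overlap, while 3.39% of all tested genes had all ASC libraries above all sham libraries and 9.06% did not overlap in either direction. The means were 116 ± 35.8 CPM in ASC and 9.78 ± 9.15 CPM in sham (SD, n = 4 each), a fitted difference of 11.7-fold. The log2 fold change was 3.55 (SE 0.64, 95% interval 2.01 to 5.08), the 23rd highest of all tested genes, and the adjusted p of edgeR's quasi-likelihood test was 0.0685. Without sham 3 the log2 fold change was 4.46 and the edgeR adjusted p 0.00100, with 0.673% of tested genes called, 0.463% higher. Without any other single library it was 3.32 to 3.72 and did not pass, with an edgeR adjusted p of 0.0974 to 0.171. DESeq2 gave 3.56 with an adjusted p of 2.0e-06 and limma-voom 3.99 with 0.00249. Sham 3 also had the highest retina marker sum, and the part of retinal, corneal, lens fibre, pigment cell or red cell RNA in the Zfp36 difference was not tested. An antisense gene, Gm44710, overlaps Zfp36, and the strand setting of the counts is not given, so reads of the pair cannot be told apart.

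Zfp36l1 (ENSMUSG00000021127), a close relative, was scarce at 25 to 110 reads per ASC library and 26 to 71 per sham library. It stood at 1.59, 5.86, 6.36 and 6.28 CPM in ASC 1 to 4 and at 1.97, 2.99, 3.44 and 1.94 CPM in sham 1 to 4. ASC 2, 3 and 4 were above every sham library and ASC 1 was the lowest of all 8, so the groups overlapped. The log2 fold change was 0.95 (95% interval 0.09 to 1.81), with an edgeR adjusted p of 0.293, and 1.24 without ASC 1, with 0.0556. With no filter on low counts it was 0.94 and passed edgeR's test, with an adjusted p of 0.0271. That setting called 430 of 31455 genes higher. Macrophage and leukocyte markers were lowest within ASC in the same library, at 21.7 CPM in ASC 1 and 70.9 to 84.2 CPM in the other ASC libraries, against 12.7 to 55.1 CPM in sham. ASC 1 was also the lowest ASC library for endothelial (5.87 CPM), pigment cell (203 CPM) and retina markers (2085 CPM). For lens fibre markers it was the highest (115796 CPM), so it differed from the other ASC libraries in several marker lists. The part of any of these in the Zfp36l1 values was not tested.

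Zfp36l2 (ENSMUSG00000045817), the remaining relative, was abundant in both groups. Its level was 66.2, 97.6, 61.0 and 98.3 CPM in ASC 1 to 4 and 66.2, 89.4, 92.4 and 71.7 CPM in sham 1 to 4. Both groups spread over nearly the same range. The log2 fold change of 0.02 had a 95% interval of -0.38 to 0.41, and its sign turned under 4 scalings or fits and when some single libraries were left out.

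Zc3h12a (ENSMUSG00000042677), the endonuclease, had only 20 to 43 reads per ASC library and 7 to 35 per sham library. Its level was 1.28, 1.41, 2.49 and 1.89 CPM in ASC 1 to 4 and 1.12, 0.607, 1.70 and 0.521 CPM in sham 1 to 4. Sham 3, the highest sham library, exceeded ASC 1 and ASC 2, so the groups overlapped. The log2 fold change was 0.82 (95% interval -0.10 to 1.74, edgeR adjusted p = 0.400), and it stayed positive under all 18 alternative settings, from 0.61 to 1.20. At this depth an increase of up to 1.74 on the log2 scale and a small decrease both lay within the interval.

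Khsrp (ENSMUSG00000007670), a decay-promoting KH-domain protein, had 54.3, 62.1, 52.7 and 56.4 CPM in ASC 1 to 4 and 55.6, 49.8, 57.1 and 52.1 CPM in sham 1 to 4. Elavl1 (ENSMUSG00000040028), the stabilising binder, had 50.6, 48.1, 45.5 and 37.7 CPM in ASC 1 to 4 and 49.7, 50.2, 52.0 and 48.3 CPM in sham 1 to 4. Hnrnpd (ENSMUSG00000000568) had 74.3, 82.2, 69.8 and 72.6 CPM in ASC 1 to 4 and 93.6, 66.8, 67.3 and 61.7 CPM in sham 1 to 4. The groups overlapped for all of these, with ASC 4 the low library for Elavl1 and sham 1 the high one for Hnrnpd. With TMM scaling their 95% intervals on the log2 scale were -0.12 to 0.26 for Khsrp, -0.35 to 0.08 for Elavl1 and -0.23 to 0.32 for Hnrnpd. The edgeR adjusted p-values were 0.762 for Khsrp, 0.563 for Elavl1 and 0.907 for Hnrnpd. Library totals in place of TMM scaling move the median of all genes by -0.12. With them the log2 fold changes of Khsrp and Hnrnpd turned to -0.05 and -0.07, and that of Elavl1 went from -0.14 to -0.27.

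Tia1 (ENSMUSG00000071337), the translational silencer, stood at 82.1, 80.0, 89.0 and 73.2 CPM in ASC 1 to 4 and at 115, 84.1, 91.9 and 98.5 CPM in sham 1 to 4. Only ASC 3 overlapped the sham range. The log2 fold change was -0.26 (SE 0.11, 95% interval -0.50 to -0.03), with an unadjusted p of 0.0310 and an edgeR adjusted p of 0.288. It was negative under all 18 alternatives, from -0.39 to -0.18, and passed the threshold in none of them. A protein-coding gene, Gm44790, overlaps Tia1 on the same strand, and its part in the Tia1 counts was not tested.

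**Figure D2:**
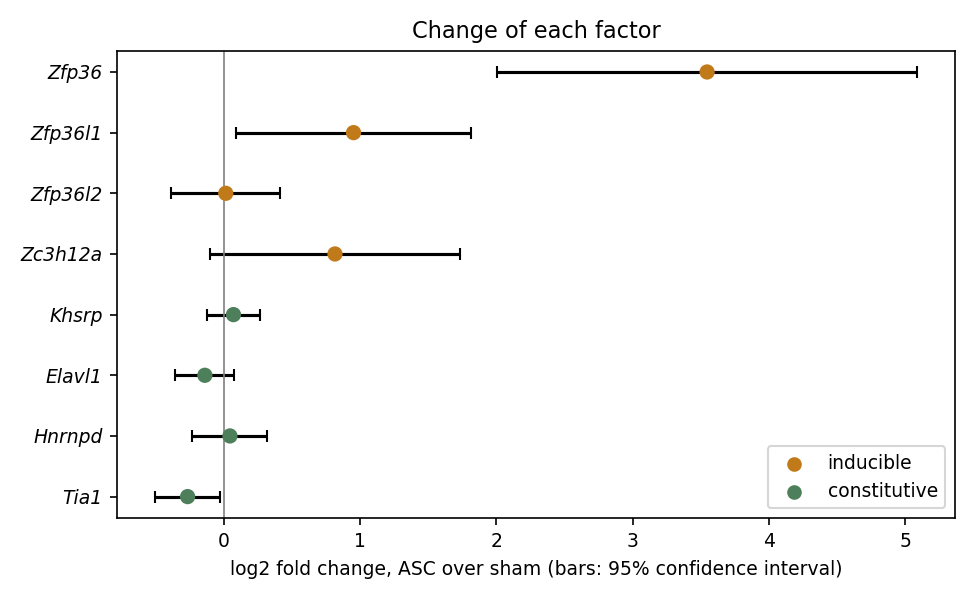
Log2 fold change of each factor, ASC over sham, with 95% confidence intervals from the edgeR fit (4 libraries a group). Zfp36 at 3.55 lies furthest from 0, and the constitutive binders lie between -0.26 and 0.07.

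Levels of different genes were compared as CPM per kb of annotated exon, a scale that understates genes with long annotated exons such as Tia1. The merged exons of Zfp36, 3470 bases, cover its whole annotated locus, so its level, rank and family share may be understated too. In ASC the order of the mean levels was Zfp36 (33.3 ± 10.3 CPM per kb, SD, n = 4), Zfp36l2 (22.9 ± 5.65), Khsrp (13.1 ± 0.952), Hnrnpd (10.2 ± 0.726), Tia1 (5.15 ± 0.412), Elavl1 (4.39 ± 0.540), Zfp36l1 (1.68 ± 0.768) and Zc3h12a (0.613 ± 0.190). The neighbours Zfp36 and Zfp36l2, Tia1 and Elavl1, and Zfp36l1 and Zc3h12a overlapped between libraries in ASC. In sham the mean levels were 22.6 ± 3.66 CPM per kb for Zfp36l2, 12.4 ± 0.770 for Khsrp, 9.84 ± 1.96 for Hnrnpd, 6.19 ± 0.839 for Tia1, 4.83 ± 0.148 for Elavl1 and 2.82 ± 2.64 for Zfp36. Zfp36l1 at 0.864 ± 0.252 and Zc3h12a at 0.342 ± 0.188 CPM per kb were the lowest in sham, and Khsrp and Hnrnpd, and Elavl1 and Zfp36, overlapped there. Zfp36 thus headed the list in ASC 1, 3 and 4 and came after Zfp36l2 in ASC 2, whereas it ranked between the fourth and the sixth place in the sham libraries.

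Within the family of Zfp36, Zfp36l1 and Zfp36l2, the share of Zfp36 in the summed level per kb was 40.7% to 69.7% in ASC (mean 56.8% ± 13.5, SD, n = 4). In sham it was 5.64% to 19.9% (mean 9.78% ± 6.80, SD, n = 4). The family sum was 57.9 ± 6.10 CPM per kb in ASC and 26.3 ± 5.98 CPM per kb in sham. The summed level of the 4 inducible factors was 50.4 to 64.9 CPM per kb in ASC and 21.4 to 34.7 CPM per kb in sham, without overlap. The 4 constitutive binders summed to 32.7 ± 1.81 CPM per kb in ASC and 33.3 ± 3.13 CPM per kb in sham. The difference in the family sum came mostly from Zfp36, since the mean level of Zfp36l2 was nearly equal in the groups.

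**Figure D3:**
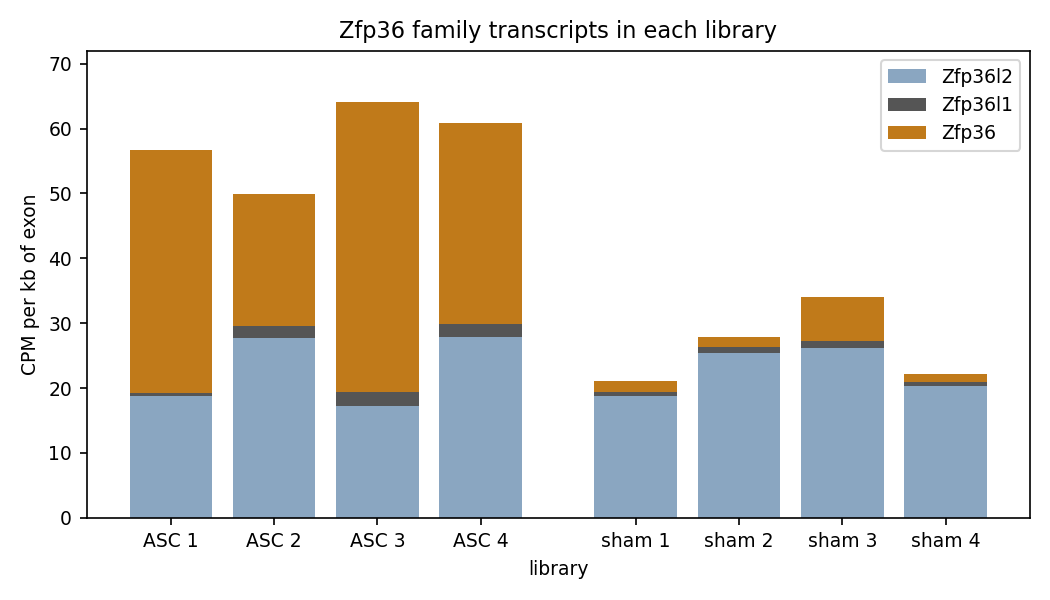
Level of Zfp36, Zfp36l1 and Zfp36l2 in each library, stacked, in CPM per kb of exon. The Zfp36 segment makes up 40.7% to 69.7% of the bar in the 4 ASC libraries and 5.64% to 19.9% in the 4 sham libraries.

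The genes with the pattern most like Zfp36 over the 8 libraries, by the root mean square difference of centred log2 CPM among 9177 genes, were Junb (0.316), Atf3 (0.428), Ccn1 (0.454), Nr4a1 (0.619) and Ier2 (0.736). Junb, a subunit of AP-1, stood at 152, 89.3, 210 and 214 CPM in ASC 1 to 4 and at 7.44, 4.95, 28.2 and 4.47 CPM in sham 1 to 4, with an edgeR adjusted p of 0.0738. Of the others, Ccn1 (log2 fold change 3.75, edgeR adjusted p = 0.00210), Nr4a1 (3.48, 0.0220), Ier2 (3.40, 0.00210) and Atf3 (3.33, 0.0352) passed edgeR's test. The call of Atf3 was lost without any single library other than sham 3 (adjusted p at most 0.108). That of Nr4a1 was lost without ASC 1, ASC 3, sham 1 or sham 2 (adjusted p at most 0.0878) and with the replicate number as a block (0.0913). These genes were picked for their likeness to Zfp36 over the same libraries, so their direction and their sham 3 values are a description and no separate evidence. The genes near to Zc3h12a included Hspb6 (0.252), Jcad (0.313), Nfil3 (0.326) and Prkar1b (0.338), and none of these passed edgeR's test.

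Among 26 tested other AU-rich binders and relatives of the decay proteins, 0 passed edgeR's test, with 0 higher and 3 lower at an unadjusted p under 0.05, where 7.9% of all tested genes were lower. The median log2 fold change was 0.05. DESeq2 and limma-voom also called 0 of them. The most abundant were Ybx1 (log2 fold change 0.25) and Celf1 (-0.21), both with overlapping groups.

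Of 18 deadenylase subunits and cofactors, 1 rose, where 0.631% of all tested genes did, and 15 had a negative log2 fold change, where 48.6% of all tested genes did. The median was -0.11. The one that rose was Btg2, an antiproliferative protein that activates the CCR4-NOT deadenylase. Btg2 stood at 171, 137, 218 and 199 CPM in ASC 1 to 4 and at 78.2, 80.2, 82.0 and 59.8 CPM in sham 1 to 4, so the groups did not overlap. Its log2 fold change was 1.27 (SE 0.15, edgeR adjusted p = 0.00210), and it passed under all 18 alternatives. Its relative Btg1 (-0.23) and the scaffold Cnot1 (-0.12) did not pass. At an unadjusted p under 0.05, 1 gene of the list was higher (5.56%, against 6.82% of all tested genes) and 2 lower (11.1%, against 7.9%). The 2 lower genes were Cnot3 (-0.44, edgeR adjusted p = 0.0670) and Cnot9 (-0.34, 0.205).

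Of 16 decapping and 5′ to 3′ decay genes, 0 passed edgeR's test in either direction, and 14 had a negative log2 fold change (87.5%, against 48.6% of all tested genes). At an unadjusted p under 0.05, 6 were lower and 1 higher in ASC, where 7.9% of all tested genes were lower. DESeq2 called 1 lower, Dcp2, where it called 231 of all its 18639 tested genes lower, and limma-voom called 0. All ASC libraries lay below all sham libraries for 6 of the 16, against 5.67% of all tested genes. The decapping enzyme Dcp2 stood at 47.5, 46.2, 45.7 and 46.4 CPM in ASC 1 to 4 and at 51.4, 69.1, 64.2 and 58.8 CPM in sham 1 to 4. Its log2 fold change was -0.39 with an edgeR adjusted p of 0.0855, and that of the helicase Ddx6 was -0.33 with 0.209. The list median was -0.22 and stayed negative under all 18 alternatives, from -0.34 to -0.16.

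Of 15 exosome and 3′ to 5′ decay genes, 0 passed edgeR's test, 0 were higher and 2 lower at an unadjusted p under 0.05, where 7.9% of all tested genes were lower, and the median was -0.05. DESeq2 called 1 lower, Ttc37, where it called 231 of all its 18639 tested genes lower, and limma-voom called 0. The abundant members Skiv2l (0.15) and Hbs1l (0.25) had overlapping groups. Of 24 kinases, phosphatases and partners that act on the factors, 1 rose, where 0.631% of all tested genes did. At an unadjusted p under 0.05, 2 were higher (8.33%, against 6.82% of all tested genes) and 0 lower. The one that rose was Dusp1, a phosphatase that switches off p38 MAP kinase, the pathway whose kinase MK2 holds tristetraprolin inactive. Dusp1 stood at 362, 245, 197 and 288 CPM in ASC 1 to 4 and at 55.5, 77.7, 55.7 and 51.0 CPM in sham 1 to 4 (log2 fold change 2.19, edgeR adjusted p = 0.000903). The groups did not overlap. The abundant 14-3-3 partners Ywhae (0.03) and Ywhah (0.02) did not pass, and with library totals, which shift the median of all genes by -0.12, the log2 fold change of both was negative.

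**Figure D4:**
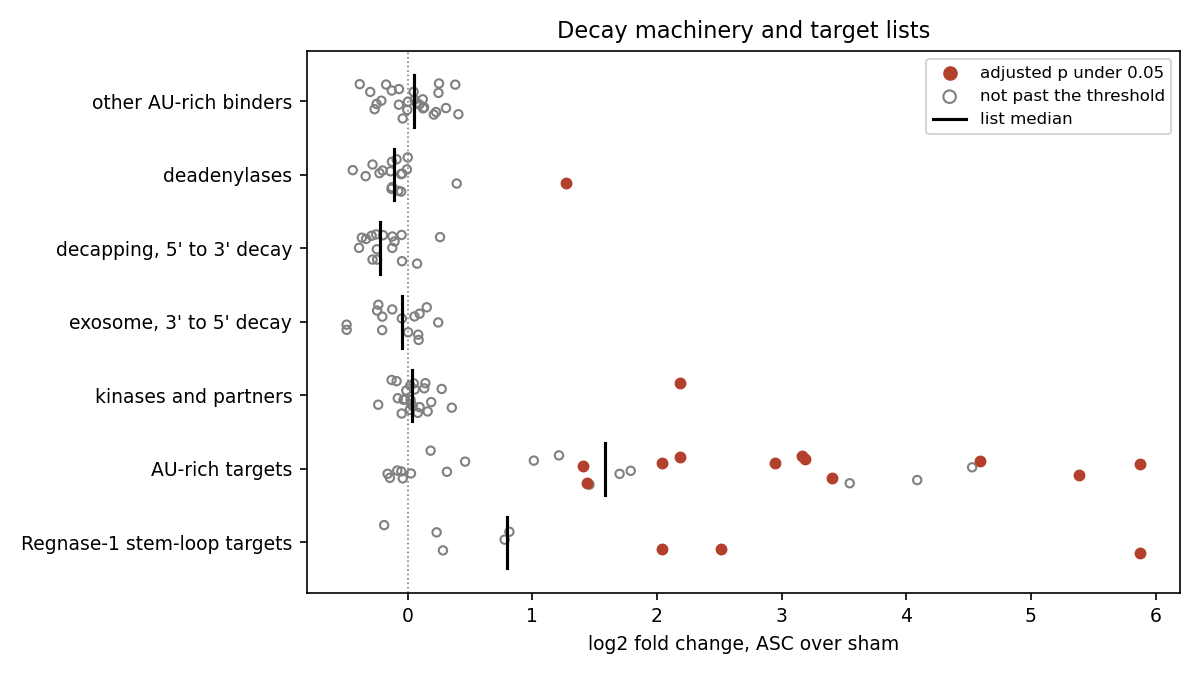
Log2 fold change, ASC over sham, of the tested genes in each list of decay machinery and targets, with filled points past an edgeR adjusted p of 0.05 and a bar at the list median. The medians of the machinery lists lie between -0.22 and 0.05 and that of the AU-rich targets at 1.58. The lists were drawn up with earlier results of these data known.

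Of 38 listed messages known as AU-rich or as short-lived immediate early targets, 28 were tested and 11 rose, against 0.631% of all tested genes called higher, and 0 fell. The median log2 fold change was 1.58, with 23 of 28 positive, where 8146 of all 15857 tested genes were. At an unadjusted p under 0.05, 17 were higher (60.7%, against 6.82% of all tested genes) and 0 lower (against 7.9%). The list holds Zfp36 itself and Dusp1, the phosphatase already counted above. It was drawn up with earlier results of these data known and holds immediate early genes such as Fos, Jun and Egr1. Its counts are therefore a description and no separate evidence. The longest 3′ UTR held at least 1 heptamer in 21 of the 28, and 4 of the 11 that rose, Ccl2, Egr1, Ier2 and Nfkbiz, held 0.

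The chemokine Cxcl1 stood at 38.5, 20.2, 20.2 and 13.3 CPM in ASC 1 to 4 and at 0.140, 0.0467, 1.26 and 0 CPM in sham 1 to 4. Its log2 fold change was 5.88 (SE 0.85, edgeR adjusted p = 0.0352). It was 8.21 without sham 3, which held 26 of its 30 sham reads, and the call was lost when any other single library was left out (adjusted p at most 0.103) and with the replicate number as a block (0.0779). The prostaglandin synthase Ptgs2 stood at 1.21, 2.55, 1.85 and 1.21 CPM in ASC 1 to 4 and at 0.0936, 0.0467, 0.0969 and 0 CPM in sham 1 to 4, at most 2 reads per sham library (log2 fold change 4.60, edgeR adjusted p = 0.00260). The groups did not overlap for either gene. The transcription factors Egr1 (5.38, edgeR adjusted p = 0.0327) and Jun (3.19, 6.8e-07) and the immediate early gene Ier2 rose, and Egr1 no longer passed when ASC 1, ASC 3, ASC 4, sham 1 or sham 2 was left out, with an adjusted p of at most 0.107, or with the block (0.0726).

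Fos stood at 355, 209, 422 and 382 CPM in ASC 1 to 4 and at 3.74, 3.55, 50.4 and 0.819 CPM in sham 1 to 4. Sham 3 was high within its group, as for Zfp36, and the edgeR adjusted p was 0.190. Ier3, with 7.82 to 19.0 CPM in ASC and 2.67 to 7.85 CPM in sham, had an adjusted p of 0.138 and overlapping groups. Tnf, the best known target of tristetraprolin, had 1 to 5 reads per ASC library and 0 to 5 per sham library and was not tested. Il6 had 0 to 3 reads per ASC library and 0 to 2 per sham library, so a difference in either was not detectable at this depth. Neutrophil markers summed to 1.68 to 3.85 CPM in ASC and 0.533 to 1.36 CPM in sham, with Ly6g and Cxcr2 at 0 in every library, and their part in the target values was not tested.

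Of 13 listed stem-loop targets of Regnase-1, 8 were tested and 3 rose, Cxcl1, Nfkbiz and Nfkbid, against 0.631% of all tested genes, at a median of 0.80 over the list. The list holds Zc3h12a itself and shares Cxcl1 and Nfkbiz with the AU-rich targets. This list too was drawn up with earlier results of these data known. Nfkbiz, an atypical inhibitor-like partner of NF-kappaB, stood at 76.2, 47.0, 56.1 and 81.9 CPM in ASC 1 to 4 and at 16.6, 17.2, 15.5 and 14.1 CPM in sham 1 to 4 (log2 fold change 2.04, edgeR adjusted p = 0.000278). Its groups did not overlap. The count was 1 with the replicate number as a block and without ASC 1, ASC 2, sham 1, sham 2 or sham 4, and 2 without ASC 3, ASC 4 or sham 3.

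The stretches with the most heptamers in the 3′ UTRs of 4 targets that rose are shown because they hold repeated heptamers, capitalised as above (GRCm38, message strand).
Cxcl1: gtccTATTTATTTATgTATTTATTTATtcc
Ptgs2: actgaccaTATTTATTTATTTATgtgaaga
Pim1: ttaatgTATTTATTTATTTATTTATttggt
Dusp1: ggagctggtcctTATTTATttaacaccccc
They lie at chr5:90892606-90892635 (plus) for Cxcl1, chr1:150105789-150105818 (plus) for Ptgs2, chr17:29495690-29495719 (plus) for Pim1 and chr17:26506159-26506188 (minus) for Dusp1. The whole 3′ UTR held 6 heptamers in Cxcl1, 6 in Ptgs2, 4 in Pim1 and 3 in Dusp1.

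Over all 13486 tested genes with an annotated 3′ UTR, 10 of 575 with 3 or more heptamers were called higher (1.74%) and 0 lower. With 0 heptamers 58 of 9337 were higher (0.621%) and 37 lower (0.396%), and with 1 heptamer 15 of 2651 were higher (0.566%). The median log2 fold change was -0.004 with 3 or more heptamers and 0.02 with 0. The 10 were Cxcl1, Ptgs2, Gdf15, Gem, Dusp1, Ppp1r15a, Plk3, Ermn, Pim1 and Slc25a25. Of these, Ppp1r15a, a stress-induced phosphatase subunit, held 4 heptamers in a 3′ UTR of 77 bases and had a log2 fold change of 2.18 (edgeR adjusted p = 5.6e-06). Zfp36, Zfp36l1, Zfp36l2 and Elavl1 are themselves among the 575. With the shorter pentamer ATTTA the contrast between classes was not seen, with 35 of 5322 genes with 3 or more called higher (0.658%) and 25 of 3963 with 0 (0.631%). This is a description of annotated letters, with no test, and a match does not show binding.

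**Figure D5:**
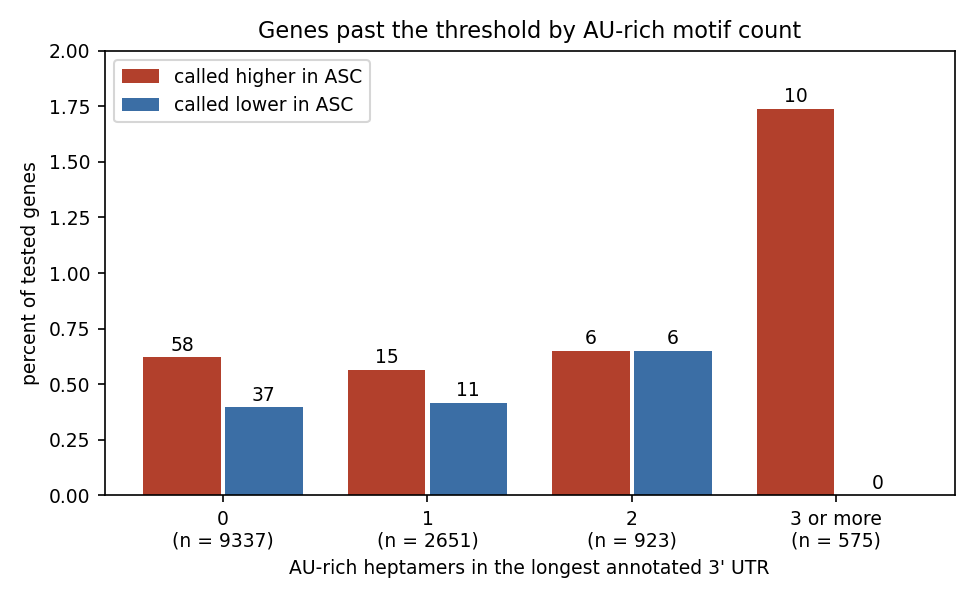
Percent of tested genes called higher or lower in ASC (edgeR adjusted p under 0.05) by the number of AU-rich heptamers in the longest annotated 3′ UTR, with the number of genes called above each bar. The share called higher is 1.74% with 3 or more heptamers and 0.621% with 0; with the pentamer the same shares are 0.658% and 0.631%.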

How the data were processed

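The submitters' processing notes name CASAVA, fastp, HISAT2 2.0.5 and featureCounts 1.5.0-p3; per the labels' protocols the libraries were poly-A selected and randomly primed. The authors deposited 1 table of whole-number read counts per gene, not normalized. The genome build, annotation and strand setting are not stated in the labels or the file, so counts of overlapping genes may mix or lose reads. All members but Zc3h12a overlap 1 other annotated gene, which for Tia1 lies on the same strand. Without molecular identifiers, precision refers to reads. All 8 count columns were used.

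Counts were fitted with edgeR 4.0.16 in R 4.3.3 (filterByExpr, TMM, robust quasi-likelihood test of ASC against sham, no covariate), with Benjamini-Hochberg adjustment over all 15857 genes. The script was tested on simulated data. The edgeR p-values set the group difference against the spread between these libraries, estimated with information shared over genes. CPM used TMM-scaled library sizes; lengths, overlaps and 3′ UTRs came from GENCODE M21, with motifs counted in each gene's longest 3′ UTR. DESeq2 1.42.0, limma 3.58.1 (voom with quality weights), other scalings and filters, crystallins left out, a replicate block and each library left out were the 18 alternatives. Marker sums were compared by two-sided exact permutation over 70 assignments.

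The members and lists were chosen with earlier results of these data known. Named were every member; up to 4 called genes per list of average log2 CPM 1 or more, by size, and its 2 most abundant genes where fewer than 2 were called; the 5 genes nearest to Zfp36 and to Zc3h12a, of which 1 is not reported here; and Tnf, Il6, Cxcl1, Ptgs2, Fos and Ier3. Nfkbid, Ccl2, Pim1, Ttc37, Cnot3, Cnot9, Ppp1r15a and the other genes with 3 or more heptamers were named after their values were seen.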

Additional observations from a re-analysis of the deposited data

Results flagged for a closer look

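In 9 of 96 groups of 4 libraries checked (9.38%), 1 library lay far from the other 3 by Dixon's criterion. It flags 5% of groups by chance where values are normally distributed. CPM near 0, as for Tnf, are not, so the 2 shares are not strictly comparable. Sham 3 was the high library in 5 of them, of which Junb and Jcad had been chosen for profiles like those of Zfp36 and Zc3h12a, so the groups checked are not independent. Zfp36 was at 23.5 CPM in sham 3 and at 4.47 to 5.71 CPM in the other sham libraries. Junb was at 28.2 CPM in sham 3 and at 4.47 to 7.44 CPM in the others. Fos was at 50.4 CPM there and at 0.819 to 3.74 CPM in the others, Cxcl1 at 1.26 CPM and at 0 to 0.140 CPM, and Jcad at 19.0 CPM and at 9.75 to 11.3 CPM. Tnf was at 0.234 CPM in sham 1, from 5 reads, and at 0 in the other sham libraries. In ASC, Zfp36l1 was at 1.59 CPM in ASC 1 and at 5.86 to 6.36 CPM in the others. Egr1 was at 204.0 CPM in ASC 2 and at 379.1 to 408.3 CPM in the others, and Ywhah at 180.1 CPM in ASC 4 and at 276.0 to 292.3 CPM in the others.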

How the results depend on the processing

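The log2 fold change of Zfp36 stayed between 3.32 and 4.46 over the 18 alternatives, with adjusted p from 2.0e-06 to 0.171, and it passed with DESeq2, limma-voom, no robust estimation, the replicate block (3.81, adjusted p = 0.0290) and without sham 3. The count of members called higher was therefore 1 under DESeq2, limma-voom, no robust estimation and the block, and 1 with no low-count filter, where it was Zfp36l1; it was 0 to 1 when single libraries were left out. All genes called higher numbered 340 of 18639 with DESeq2, 430 of 31455 with no filter and 40 to 167 leaving out 1 library. Called lower, in the same order, were 231, 282 and 16 to 61, and 39 with the block. Same-numbered libraries correlated at 0.217, 0.0573, 0.214 and -0.0897 in their deviations, and differently numbered ones at -0.461 to 0.300. The numbers were not taken as pairs.

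Deadenylases called higher were 2 with no filter, and 1 deadenylase, 1 decapping and 1 exosome gene were called lower with DESeq2 and with no filter. AU-rich targets called higher were 17 with DESeq2 and 8 to 13 leaving out 1 library. Regnase-1 targets called were 1 with the block and 1 to 2 leaving out 1 library. With the nonamer (the heptamer with a T on either side), 0.69% of genes with 1 motif were called lower and 2.58% with 2 motifs higher. With the pentamer ATTTA, 0.126% were lower with 0 motifs, 1.01% higher and 0.356% lower with 2, and 0.658% higher and 0.676% lower with 3 or more, against 0.631% higher with 0.

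The sign turned for Zfp36l2 with library totals (-0.098), limma-voom (-0.095), the block (-0.0033) and upper quartile scaling (-0.00090), and ran from -0.096 to 0.128 leaving out 1 library. With library totals it turned for Khsrp (-0.047), Hnrnpd (-0.071), Ywhae (-0.094) and Ywhah (-0.109), and for the summed lens epithelium (-4528 CPM) and endothelium markers (-0.000766 CPM). Ywhah was also -0.0047 with the block and -0.0037 with upper quartile scaling. Leaving out 1 library gave -0.024 to 0.193 for Hnrnpd, -0.027 to 0.094 for Ywhae, -0.044 to 0.155 for Ywhah, -2826 to 24986 CPM for lens epithelium and -0.642 to 3.74 CPM for endothelium. The cause of these turns was not tested.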

Other observations

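Tested genes were split by 3′ UTR length into 3 classes of about equal size. In the shortest class (3 to 729 bases) 5 of 18 genes with 3 or more heptamers were called higher (27.8%), in the middle class (730 to 1891 bases) 3 of 100 (3.0%) and in the longest class 2 of 457 (0.438%). Genes with 0 heptamers were called higher in 0.743%, 0.688% and 0.285% of the same classes, shortest to longest. The split was chosen after the data were seen and was not tested. Zfp36, with 3 heptamers in 774 bases, lies in the middle class.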
